A study of Mus musculus with 79 samples.

Results

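Vasoactive intestinal peptide (VIP) interneurons of the mouse visual cortex were compared with the general pool of transduced neurons, both carrying the mutant form of a Kir2.1 vector. The comparison rests on 17 of the 79 libraries of the series, chosen by their labels: 9 of transduced VIP nuclei and 8 of transduced nuclei labelled as neurons, and it was made over all genes. Every mouse was heterozygous for the INTACT allele, a nuclear tag used for sorting, and for a VIP Cre driver (written INTACT wt/ki and VIP Cre wt/ki). All were injected in the visual cortex at postnatal day 55 to 60 with an adeno-associated virus (AAV-Syn1-Kir2.1(Mutant)-2a, followed by mScarlet-KASH) whose neuronal Syn1 promoter drives a mutant Kir2.1 channel and a red nuclear label. Dark housing began 3 days after the injection, and each of the 17 libraries is labelled 10 days dark housed, within a protocol range of 10 to 12 days. A library holds 50 to 100 sorted nuclei amplified by 17 cycles of PCR. The labels count 5 males and 4 females among the VIP libraries and 4 and 4 among the neuron libraries. They do not say what the mutation does to the channel, nor whether VIP nuclei were kept in the neuron sort, and they tie no library number to an animal. A pair of further sets was used only to place the comparison: the same contrast with the Kir2.1 vector (AAV-Syn1-Kir2.1-2a, also with mScarlet-KASH, 10 VIP and 8 neuron libraries), and non-transduced VIP nuclei against all non-transduced nuclei of mutant-injected cortex (9 and 9).

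VIP cells are a class of cortical GABAergic interneuron born in the caudal ganglionic eminence, and many of them inhibit other interneurons, so that their firing releases nearby excitatory cells from inhibition. They are driven by acetylcholine and serotonin through ionotropic receptors, and a subset makes acetylcholine itself. Most other cortical neurons are excitatory projection cells, which package glutamate with VGLUT1, the product of Slc17a7.

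The promoters of 3 genes that separate the groups are shown, because Vip is a classical target of the cAMP and calcium response element (CRE): Vip itself, Chat (choline acetyltransferase) and Slc17a7. Each is the 250 bases before the RefSeq transcription start on GRCm38.p6, written on the gene's own strand, with the CRE half-site TGACG, or CGTCA on the other strand, in capitals.
Vip, chr10:5638968-5639217, plus strand: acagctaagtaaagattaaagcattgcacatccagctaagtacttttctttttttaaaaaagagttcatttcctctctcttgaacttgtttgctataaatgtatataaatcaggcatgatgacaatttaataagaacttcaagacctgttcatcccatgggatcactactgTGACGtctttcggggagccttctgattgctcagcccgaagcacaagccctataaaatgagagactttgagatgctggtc
Chat, chr14:32465910-32466159, minus strand: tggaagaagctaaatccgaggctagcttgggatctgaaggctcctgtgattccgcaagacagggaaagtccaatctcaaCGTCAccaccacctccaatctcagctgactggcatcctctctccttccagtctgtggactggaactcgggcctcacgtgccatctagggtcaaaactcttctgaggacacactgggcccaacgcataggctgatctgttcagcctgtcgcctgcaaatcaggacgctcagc
Slc17a7, chr7:45163671-45163920, plus strand: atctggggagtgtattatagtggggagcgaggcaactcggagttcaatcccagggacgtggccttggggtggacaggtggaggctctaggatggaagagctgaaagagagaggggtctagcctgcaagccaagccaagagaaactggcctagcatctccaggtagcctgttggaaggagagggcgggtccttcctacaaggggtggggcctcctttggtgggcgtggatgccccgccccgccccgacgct
The Vip and the Chat windows each held 1 half-site and the Slc17a7 window held 0. None of the 3 held TAATTA, a core bound by many homeodomain proteins, or CAGATG, an E-box bound by NEUROD factors (CATCTG on the other strand). At least 1 half-site lay in such a window of 19.8% of the 27025 genes of the RefSeq promoter table. Among genes of the table that were tested here, the share was 27.7% for those higher in VIP nuclei, 25.7% for those lower and 31.6% for those that did not pass. For TAATTA the shares were 3.86%, 4.13% and 2.96%, against 5.65% of all. For CAGATG they were 13.6%, 14.5% and 11.9%, against 16.3%. Of the 24 leading genes, 16 had a window in the table.

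Total counts ran from 3530952 to 7010209 in the VIP libraries and from 5126594 to 9267246 in the neuron libraries. Between 18061 and 21000 genes had at least 1 count in a VIP library, and between 20253 and 22958 in a neuron library. The group means, VIP minus neurons, differed by -1828 genes (exact permutation test, two-sided, p = 0.00115, adjusted over 3 library measures 0.00346) and by -1758870 counts (p = 0.024, adjusted 0.036). Library 1 of the VIP group stood apart: its rank correlation with the median of the other VIP libraries was 0.717, against 0.845 to 0.914 for each of the other 8. Without it 1682 genes were higher and 2151 lower, and results that turn on it are given both ways. The sex labels and the sex-linked transcripts differed: Xist was at 898 CPM or more in 9 libraries and at 6.62 or less in the other 8, and the summed Y-linked genes (Ddx3y, Kdm5d, Uty, Eif2s3y) showed the reverse. By that check 9 of 17 libraries, 5 VIP and 4 neuron, went against their label. Libraries with the same number always agreed across the groups (8 of 8 shared numbers), so each state was present in both groups.

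Of 15741 genes tested with edgeR's quasi-likelihood test (Benjamini-Hochberg adjusted p under 0.05), 1487 (9.45%) were higher in VIP nuclei and 1885 (12%) lower, 21.4% in all. A difference of at least 2-fold was found for 988 higher (6.28%) and 1292 lower genes (8.21%). Levels are given as CPM, counts scaled to a fixed library total, on the TMM-adjusted library size, as the lowest, median and highest library of each group. The ranges of the groups did not overlap for 496 genes on the higher side (3.15%) and 833 on the lower (5.29%). The median log2 fold change of all genes tested was 0.03. Among the genes called, 251 higher ones reached the filter level of 1.78 CPM in VIP nuclei only and 377 lower ones in neurons only, so these could be called in 1 direction only; list counts below are therefore also given over members that reached it in both groups, and all are to be read against the 9.45% and 12%. With the 9 libraries against their sex label left out, 708 genes were higher and 1212 lower; of 183 named genes called, 30 lost the call, 2 were no longer tested and 0 changed sign. The gene lists share members, so their counts are not separate findings. Protein-coding genes lower in VIP nuclei spanned a median of 84.1 kb of genome, those higher 46.4 kb and those that did not pass 23.6 kb. These are nuclear RNA libraries of small pools, in which fewer nuclei of a type and less RNA per nucleus cannot be told apart.

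**Figure D1:**
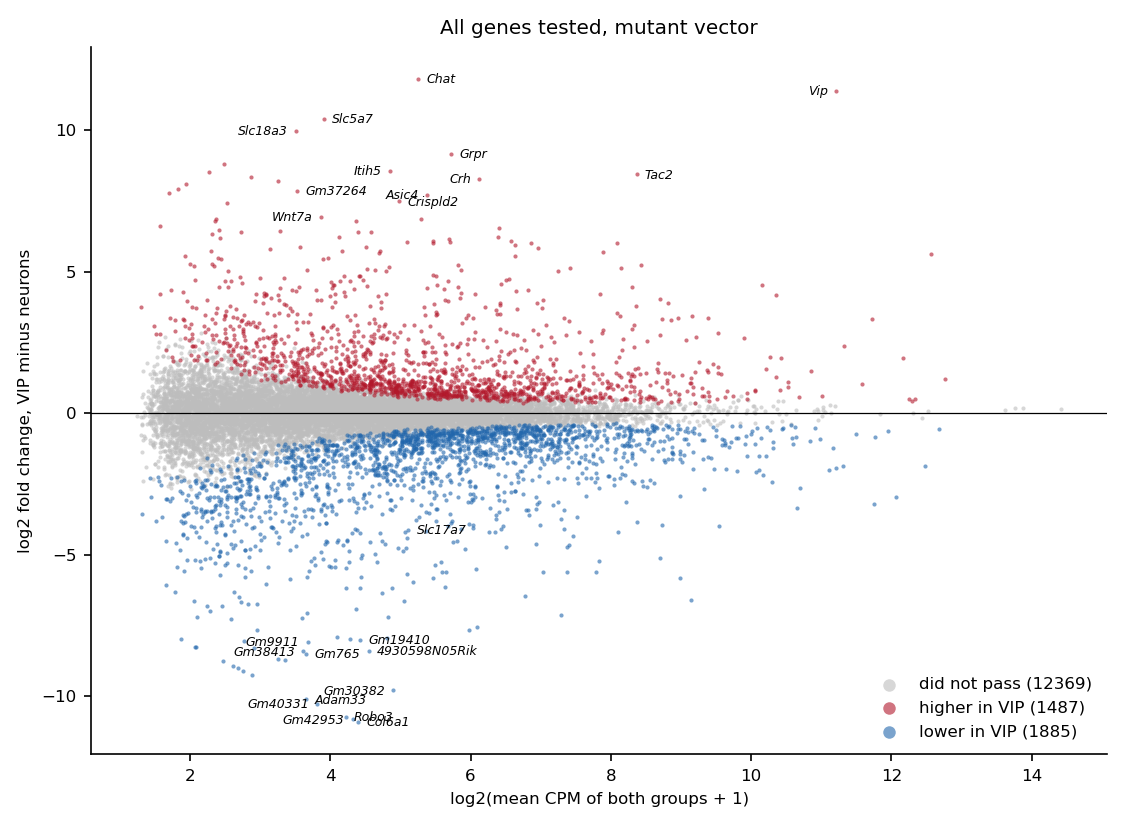
Log2 fold change of VIP over neuron nuclei (vertical axis) against mean level, log2(mean CPM of both groups + 1) (horizontal axis), for the 15741 genes tested. Red points are the 1487 genes higher in VIP nuclei, blue points the 1885 lower and grey points the rest; most of the 24 leading genes, Vip among them, and Slc17a7 are named, and for genes with 0 counts in a group the plotted fold is a fitted value, not a bound.

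The 2 markers given with the comparison separated the groups completely. Vip (ENSMUSG00000019772, chromosome 10, 5639218 to 5647617 on GRCm38), which encodes the peptide that names the class, ran 723 to 8911 CPM (median 5505) in VIP nuclei and 0 to 5.93 CPM (median 0) in neurons, with 0 counts in 5 of the 8 neuron libraries (log2 fold change 11.39 ± 0.78, adjusted p = 1.15e-11). The low VIP value is that of library 1; the next lowest was 3101 CPM. Slc17a7 (ENSMUSG00000070570, chromosome 7, 45163949 to 45176142) ran 0.296 to 7.54 CPM (median 4.89) in VIP nuclei and 38.9 to 90.3 CPM (median 61.9) in neurons (log2 fold change -4.13 ± 0.41, adjusted p = 1.25e-08). No library of one group came within the range of the other for either gene.

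Genes of acetylcholine synthesis and transport were among the leading genes higher in VIP nuclei. Leading genes were picked for ranges that do not overlap. The 12 on this side reached the filter level in VIP nuclei only, so they could be called higher only. Chat, choline acetyltransferase, ran 45.5 to 133 CPM (median 67) in the 9 VIP libraries and had 0 counts in all 8 neuron libraries, which is at least 1356-fold higher against a floor of 3 counts over the group (adjusted p = 7.53e-13). Slc5a7, the high-affinity choline transporter, ran 10.4 to 49.2 CPM (median 26.9) against 0 counts in the neuron libraries, at least 499.5-fold higher (adjusted p = 2.46e-10). Slc18a3, the vesicular acetylcholine transporter, ran 4.35 to 50.1 CPM (median 17.8) against 0 counts, at least 401-fold higher (adjusted p = 1.11e-08). All 3 were therefore detected in each VIP library and in none of the neuron libraries. Across the 21 tested transmitter synthesis and transport genes, of 24, 10 were higher and 4 lower (median 0.53); over the 17 that reached the filter level in both groups, 7 were higher and 3 lower. Slc18a3 (chromosome 14, 32462438 to 32464850) lies within Chat (32408203 to 32465989) on the same strand, so reads of the 2 genes may not be fully separated, and the antisense gene Gm2990 overlaps Chat on the other strand.

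The other leading genes on this side included peptides, a peptide receptor, an ion channel and extracellular proteins. Tac2, the precursor of neurokinin B, ran 115 to 1279.5 CPM (median 633) against 0 to 7.99 CPM (median 1.19) in neurons (log2 fold change 8.43 ± 0.63, adjusted p = 6.51e-11). Crh, corticotropin-releasing hormone, ran 39.7 to 315 CPM (median 115) against 0 to 1.72 CPM (median 0.14) (log2 fold change 8.27 ± 0.60, adjusted p = 2.82e-11). Grpr, the receptor for gastrin-releasing peptide, ran 51.6 to 136 CPM (median 113) in VIP nuclei and was detected in 1 neuron library, at 1.05 CPM (log2 fold change 9.15 ± 0.51, adjusted p = 2.76e-13). That the ranges of these 3 genes lie apart follows from the rule that picked leading genes. Asic4, of the acid-sensing ion channel family, ran 31 to 139 CPM (median 83.2) against 0 to 1.2 CPM (median 0) (log2 fold change 7.72 ± 0.55, adjusted p = 2.11e-11). Itih5, Crispld2 and the signalling ligand Wnt7a had VIP medians of 51.7, 60.9 and 23.1 CPM and neuron maxima of 0.367, 1.89 and 0.53 CPM. The unclassified gene Gm37264 had a VIP median of 17.6 CPM and a neuron maximum of 0.316 CPM. It lies within Asic4 on the opposite strand (chromosome 1, 75468570 to 75470761 within 75450436 to 75474343), and with a kit that marks no strand its reads and those of Asic4 cannot be told apart.

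The 12 leading genes on the lower side were also picked for ranges that do not overlap. They reached the filter level in neurons only, so they could be called lower only. Of these 12, 5 had 0 counts in all 9 VIP libraries. Col6a1, a collagen VI chain, ran 22.7 to 86.6 CPM (median 30.9) in neurons, at least 673-fold above the VIP floor (adjusted p = 2e-10). Robo3, an axon guidance receptor, ran 20 to 52.2 CPM (median 36.3) in neurons, at least 569-fold above it (adjusted p = 5.49e-11). Adam33, a metalloprotease, and the non-coding genes Gm42953 and Gm40331 completed this set, with neuron medians of 24.1, 26.8 and 21.6 CPM. A further 4 leading genes had 1 to 3 counts in the VIP group; for Gm30382 the depth-adjusted count ratio was 1359, with an exact 95% interval of 376 to 11226, and Gm765, Gm38413 and Gm9911 had ratios of 552, 559 and 376. Also among the 12 were 4930598N05Rik and Gm19410, with neuron medians of 49.9 and 37.8 CPM and VIP medians of 0. Several of these overlap other genes that were lower too, Gm9911 within Unc5d on the same strand, Gm30382 with Gm5149 on the opposite one and 4930598N05Rik with Gm28905, so their counts may not be separate.

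Markers of VIP cells and of GABAergic cells in general were higher in VIP nuclei wherever they could be tested. Of 25 VIP neuron markers, 24 passed the count filter and 24 were higher, with a median log2 fold change of 5.75 against 0.03 over all genes; 16 of the 24 reached the filter level in VIP nuclei only, and the median was the same with 3 genes at 0 counts set to their bound. Prox1, a homeobox factor of interneurons from the caudal eminence, ran 174 to 235 CPM (median 183) against 1.32 to 7.36 CPM (median 3.55) (log2 fold change 5.54 ± 0.25, adjusted p = 1.18e-14). Igf1, a growth factor secreted by VIP cells, ran 454 to 700.2 CPM (median 543) against 1.16 to 18.6 CPM (median 7.92) (log2 fold change 6.0 ± 0.37, adjusted p = 1.79e-12). Neither gene's ranges overlapped. Calb2, which encodes calretinin, ran 24.4 to 78.7 CPM (median 48.9) against 0 to 4.95 CPM (median 0.21) (log2 fold change 5.67 ± 0.65, adjusted p = 1.12e-07). Penk, the enkephalin precursor, ran 72.5 to 973 CPM (median 601) against 0.146 to 36.8 CPM (median 12.6), with library 1 again lowest among VIP nuclei (log2 fold change 5.14 ± 0.52, adjusted p = 1.55e-08). Htr3a, the ionotropic serotonin receptor subunit, ran 46.7 to 346 CPM (median 217) in VIP nuclei and had 0 counts in 6 of 8 neuron libraries (log2 fold change 5.82 ± 0.88, adjusted p = 9.38e-06). Its neuron maximum of 30.2 CPM came from library 6, where Tac2 was also at its neuron maximum (7.99 CPM) and Vip was at 3.26 CPM. Vip was higher in neuron libraries 8 and 9 (3.85 and 5.93 CPM), where Htr3a was at 0 and 0.814 CPM.

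Of 15 pan-GABAergic genes, 14 were tested and 14 were higher, with a median of 3.08; 11 of the 14 had ranges that did not overlap. Of the 14, 3 reached the filter level in VIP nuclei only and could be called in that direction only; the other 11 reached it in both groups. Gad1 and Gad2 make GABA: Gad1 ran 323 to 724 CPM (median 562) against 45.5 to 102 CPM (median 63.9) (log2 fold change 2.95 ± 0.19, adjusted p = 2.85e-12), and Gad2 ran 213 to 283 CPM (median 240.2) against 17.4 to 58.7 CPM (median 35.8) (log2 fold change 2.70 ± 0.19, adjusted p = 2.22e-11). Slc32a1, the vesicular GABA transporter, ran 10.3 to 31.6 CPM (median 19.9) against 0 to 5.51 CPM (median 2.25) (log2 fold change 3.20 ± 0.55, adjusted p = 6.4e-05). Gad1 and Gad2 were detected in each neuron library, while Slc32a1 was at 0 CPM in its lowest one. Each of these GABAergic transcripts was lower in every neuron library than in any VIP library. Erbb4, the neuregulin receptor of interneurons, ran 4328 to 9319 CPM (median 5949.7) against 271 to 863 CPM (median 616) (log2 fold change 3.32 ± 0.20, adjusted p = 1.37e-12). Dlx1, an interneuron homeobox gene, ran 62 to 122 CPM (median 82.3) against 1.37 to 5.15 CPM (median 2.53) (log2 fold change 4.83 ± 0.27, adjusted p = 2.64e-13). Its antisense partner Dlx1as (log2 fold change 2.78) and the Dlx6 partner Dlx6os1 (4.22) were higher too, but the library kit marks no strand, so sense and antisense reads there cannot be told apart.

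**Figure D2:**
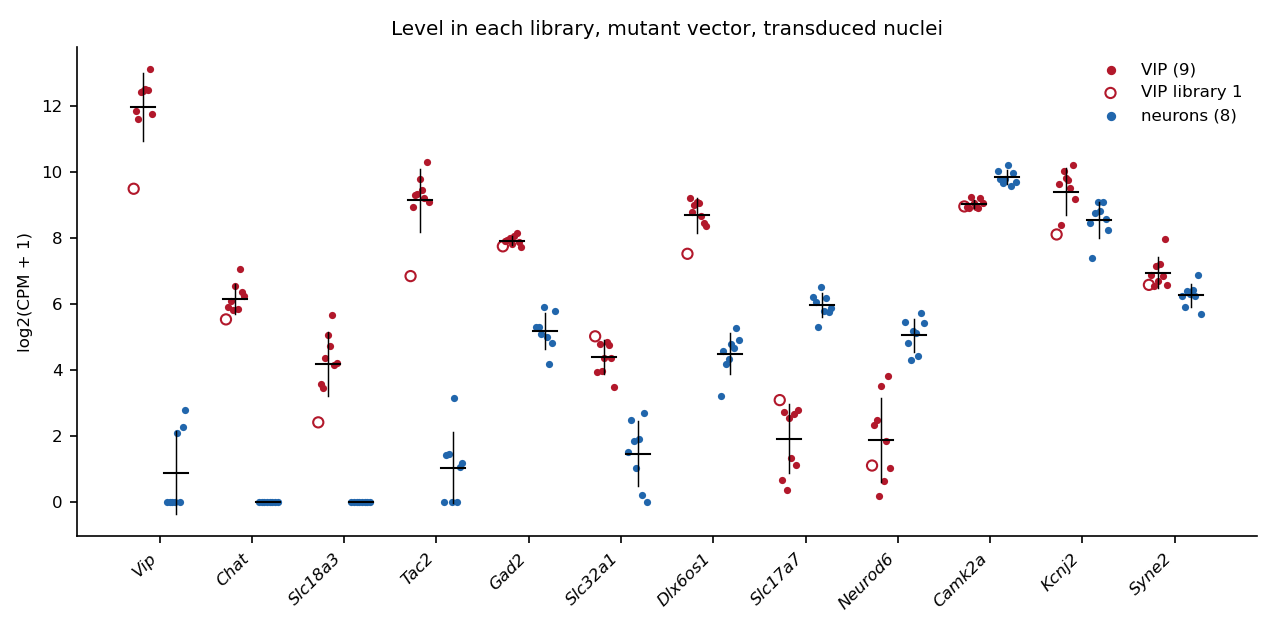
Level of 12 genes in each of the 17 libraries as log2(CPM + 1) (vertical axis), VIP libraries in red and neuron libraries in blue; bars are the mean and 1 SD of the group on that scale, and the open circle is VIP library 1. Chat and Slc18a3 are at 0 in all 8 neuron libraries, and Kcnj2 and Syne2 overlap between the groups.

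All 21 excitatory markers that could be tested, of 22, were lower in VIP nuclei, with a median log2 fold change of -3.20, and the ranges did not overlap for any of them (21 of 21). Of the 21, 6 reached the filter level in neurons only and could be called lower only; the other 15 reached it in both groups. Sv2b, a synaptic vesicle protein, ran 2.6 to 20.3 CPM (median 7.24) in VIP nuclei and 384 to 517 CPM (median 417) in neurons (log2 fold change -5.63 ± 0.28, adjusted p = 5.24e-14). Nrgn, which encodes the calmodulin-binding protein neurogranin, ran 3.55 to 12.5 CPM (median 8.45) against 121 to 184 CPM (median 150.2) (log2 fold change -4.20 ± 0.23, adjusted p = 2.94e-13). The smallest difference of those named was in Camk2a, the calmodulin-dependent kinase subunit, at 480.4 to 613 CPM (median 498) against 765 to 1184 CPM (median 883) (log2 fold change -0.82 ± 0.12, adjusted p = 4.55e-06). Ptk2b, a calcium-activated tyrosine kinase, had a log2 fold change of -3.20 ± 0.20. Slc17a6, which encodes VGLUT2, ran 0 to 0.827 CPM (median 0) against 14.1 to 41.7 CPM (median 20.7) (log2 fold change -7.05 ± 0.64, adjusted p = 1.8e-09). Without the 9 libraries against their sex label, 19 of the 21 were still lower.

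Markers of layers moved mostly the same way as the excitatory list. Of 16 layer 2 to 4 markers 11 were lower and 1 higher (median -2.42), and of 19 tested layer 5 and 6 markers, from a list of 23, 10 were lower and 4 higher (median -1.57). Over members that reached the filter level in both groups, the counts were 8 lower and 1 higher of 12, and 6 lower and 4 higher of 14. Rorb, a nuclear receptor of layer 4, ran 0.433 to 12 CPM (median 6.67) against 176 to 608 CPM (median 283) (log2 fold change -5.61 ± 0.37, adjusted p = 5.29e-12). Otof, an otoferlin calcium sensor, ran 0 to 1.2 CPM (median 0) against 25.6 to 50.3 CPM (median 38.4) (log2 fold change -6.92 ± 0.53, adjusted p = 9.55e-11). Foxp2, a forkhead factor of layer 6, ran 0.207 to 4.63 CPM (median 1.74) against 49.7 to 135 CPM (median 73.1) (log2 fold change -5.38 ± 0.38, adjusted p = 1.93e-11). For these 3 the VIP maximum lay below the neuron minimum. Cux2, Tshz2 and Il1rapl2 had log2 fold changes of -2.76, -5.26 and -4.35. The layer genes that were higher in VIP nuclei were Thsd7a (1.79) from the upper list and Vwc2l (2.11), Syt6 (1.21), Pcp4 (0.67) and Sulf2 (0.62) from the deep one. Of these 5 only Vwc2l had ranges that did not overlap, 235 to 410.0 CPM (median 286) against 33.3 to 137 CPM (median 68.5). Without the 9 libraries against their sex label, 1 of the 4 deep genes was still called higher, and the call of Sulf2 was lost when any of 12 libraries was left out (adjusted p up to 0.125).

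**Figure D3:**
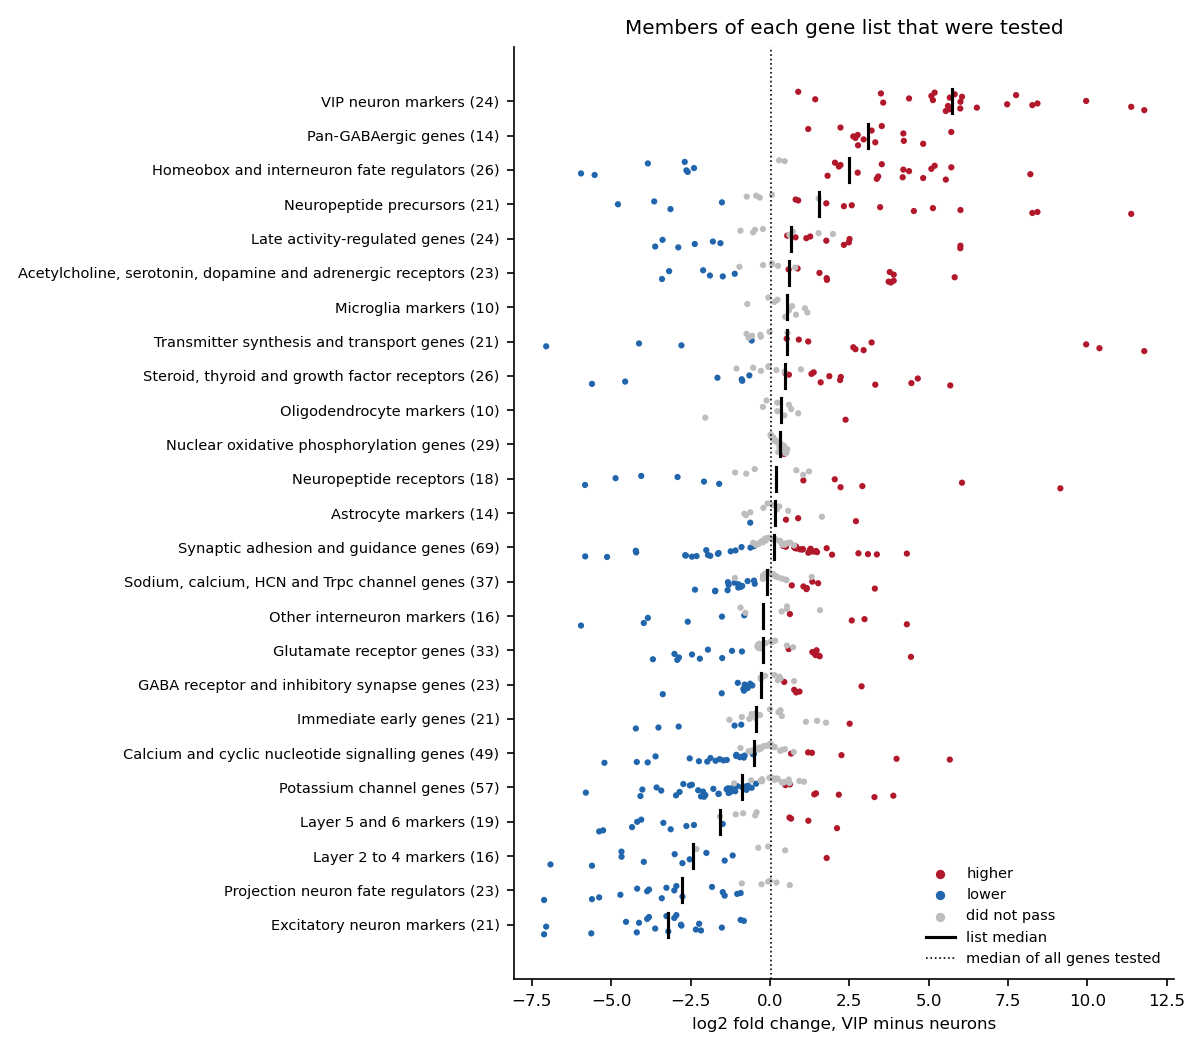
Log2 fold change (horizontal axis) of every tested member of each gene list, 1 point a gene, for lists with at least 5 tested members; the number tested is in brackets. Red and blue points passed the test as higher or lower, black bars are list medians and the dotted line is the median of all genes; for genes at 0 counts in a group the point is a fitted value, and list medians run from 5.75 for VIP markers to -3.20 for excitatory markers.

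Transcription factors of cell fate were called on both sides. Of 29 homeobox and interneuron fate regulators 26 were tested; 17 were higher and 7 lower, with a median of 2.5; over the 16 that reached the filter level in both groups, 10 were higher and 4 lower. Npas3, a bHLH-PAS factor, ran 1929 to 3491 CPM (median 2469) against 61.8 to 237 CPM (median 127) (log2 fold change 4.18 ± 0.24, adjusted p = 4.76e-13). Zfp536, a zinc finger repressor, ran 719 to 1389.6 CPM (median 852) against 65.3 to 112 CPM (median 88.3) (log2 fold change 3.37 ± 0.17, adjusted p = 7e-14). Dlx2 ran 2.96 to 16.7 CPM (median 6.75) against 0 to 0.658 CPM (median 0) (log2 fold change 5.72 ± 0.85, adjusted p = 7.17e-06). The 7 lower members included regulators of interneurons from the medial eminence and of excitatory cells. Meis2 ran 0.207 to 7.22 CPM (median 2.9) against 103 to 159 CPM (median 127) (log2 fold change -5.52 ± 0.44, adjusted p = 1.58e-10), and Sox6, needed by medial-eminence interneurons, ran 0 to 3.31 CPM (median 0.918) against 33.2 to 146 CPM (median 52) (log2 fold change -5.95 ± 0.53, adjusted p = 1.64e-09). Of 26 projection neuron regulators 23 were tested, 17 were lower and 0 higher (median -2.76); none was higher at an unadjusted p under 0.05 (0 genes) or with DESeq2 (0 genes). Of the 23, 7 reached the filter level in neurons only and could not have been called higher; of the 16 that reached it in both groups, 10 were lower. Bcl11a, a zinc finger factor of projection neurons, ran 7.3 to 35.7 CPM (median 18.5) against 172 to 247 CPM (median 196) (log2 fold change -3.41 ± 0.23, adjusted p = 1.15e-11).

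Markers of other interneuron classes did not move as a block: of 24 genes 16 were tested, 4 were higher, 6 lower and 6 did not pass, with a median of -0.20; over the 12 that reached the filter level in both groups, 3 were higher and 4 lower. Sst, somatostatin, ran 1.45 to 14.6 CPM (median 6.42) against 4.89 to 37.9 CPM (median 17.2), with overlapping ranges (log2 fold change -1.51 ± 0.43, adjusted p = 0.0113). Lamp5, of neurogliaform and superficial excitatory cells, ran 0.803 to 29 CPM (median 10.3) against 114 to 232 CPM (median 158) (log2 fold change -3.98 ± 0.41, adjusted p = 1.98e-08). Pvalb, parvalbumin, ran 0 to 17.7 CPM (median 3.26) against 1.86 to 20.9 CPM (median 7.5) and did not pass (log2 fold change -0.93 ± 0.61, adjusted p = 0.325). Elfn1, a postsynaptic protein of interneurons, ran 131 to 332 CPM (median 173) against 0.922 to 21.7 CPM (median 10) (log2 fold change 4.32 ± 0.40, adjusted p = 3.26e-09). Npy ran 55.7 to 269 CPM (median 228) against 11.7 to 53.9 CPM (median 29.5) (log2 fold change 2.58 ± 0.36, adjusted p = 2.92e-06). Kcnc1, a fast potassium channel, was called higher (log2 fold change 0.63, adjusted p = 0.0245), but without VIP library 1, its highest library, the value was 0.44 and the adjusted p = 0.0572; without neuron library 7 or 9 the adjusted p was 0.055 or 0.0565.

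Peptide signalling differed on both the ligand and the receptor side. Of 32 neuropeptide precursors 21 were tested, and 12 were higher, 4 lower and 5 did not pass (median 1.53). Vip, Crh and Tac2, among the higher ones, are also on the VIP marker list. Over the 15 that reached the filter level in both groups, 8 were higher and 2 lower. Pnoc, the nociceptin precursor, ran 30.4 to 165 CPM (median 84.8) against 1.15 to 9.35 CPM (median 2.37) (log2 fold change 4.54 ± 0.41, adjusted p = 1.72e-09). Cck, cholecystokinin, was higher with overlapping ranges, 76 to 514 CPM (median 341) against 93.4 to 288 CPM (median 162) (log2 fold change 0.89 ± 0.27, adjusted p = 0.0185). Scg2, secretogranin II, ran 131 to 933 CPM (median 548) against 66.3 to 148 CPM (median 104) (log2 fold change 2.33 ± 0.26, adjusted p = 8.35e-08). The 4 lower precursors were the neurexophilin gene Nxph1 (-3.13), Grp (-4.79), Sst and Adcyap1 (-3.65). Grp, gastrin-releasing peptide, thus had the opposite direction to its receptor Grpr. Its levels were low and overlapped, 0 to 2.32 CPM (median 0) against 2.1 to 11.8 CPM (median 8.77). Without the 9 libraries against their sex label Grp lost the call (-3.98, adjusted p = 0.069). Adcyap1 did not reach the filter without VIP library 1.

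Of 29 neuropeptide receptors 18 were tested, 6 were higher and 6 lower; of the 10 that reached the filter level in both groups, 4 were higher and 3 lower. Npy1r, a neuropeptide Y receptor, ran 64.1 to 251 CPM (median 164) against 20.8 to 44.1 CPM (median 35) (log2 fold change 2.23 ± 0.22, adjusted p = 9.34e-09). Hcrtr2, an orexin receptor, ran 38.1 to 100.1 CPM (median 66.8) against 4.12 to 20.8 CPM (median 7.29) (log2 fold change 2.91 ± 0.31, adjusted p = 3.2e-08). Npy2r ran 8.7 to 148 CPM (median 111) against 0 to 5.82 CPM (median 0), its lowest VIP value again from library 1 (log2 fold change 6.05 ± 0.72, adjusted p = 2.44e-07). Among the lower members, Cckbr, the cortical cholecystokinin receptor, ran 0 to 7.53 CPM (median 0.289) against 53.8 to 125 CPM (median 86.6) (log2 fold change -5.83 ± 0.63, adjusted p = 4.19e-08). Oprm1, the mu opioid receptor, ran 20.7 to 55.3 CPM (median 44.7) against 109 to 182 CPM (median 128) (log2 fold change -1.60 ± 0.18, adjusted p = 6.61e-08). Crhr1, the receptor for Crh, ran 2.67 to 20.5 CPM (median 9.51) against 37.5 to 61.3 CPM (median 46.6) (log2 fold change -2.08 ± 0.31, adjusted p = 8.78e-06). The Cck and the Crh pair therefore showed a higher ligand, with overlapping ranges for Cck, and a lower receptor in VIP nuclei. Other pairs did not: Npy was higher together with Npy1r and Npy2r, and Grp was lower with Grpr higher.

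Receptors for acetylcholine, serotonin, dopamine, histamine and noradrenaline were called in both directions: of 37 genes 23 were tested, 11 were higher, where 9.45% of all genes were, and 6 lower (12% of all), with a median of 0.59. Over the 19 that reached the filter level in both groups, 8 were higher and 5 lower, and the balance of directions was not tested. Htr4 and Htr2c, both G protein coupled serotonin receptors, ran 98.6 to 226 CPM (median 165) against 4.89 to 21.3 CPM (median 11.6) (log2 fold change 3.81 ± 0.27, adjusted p = 1.88e-11) and 102 to 171 CPM (median 136) against 1.84 to 17.3 CPM (median 10.9) (log2 fold change 3.74 ± 0.28, adjusted p = 4.93e-11). Adra1b, an alpha-1 adrenoceptor, ran 81 to 239 CPM (median 153) against 2.47 to 18.4 CPM (median 11.6) (log2 fold change 3.90 ± 0.30, adjusted p = 9.22e-11). No library overlapped between the groups for these. The nicotinic subunits Chrna3, Chrna4, Chrna5, Chrna7 and Chrnb2 were among the 11, as was Htr3a. These were picked after their calls were seen, and the other nicotinic subunits are not listed here. Without the 9 libraries against their sex label, 24 receptor genes of this list were tested, with 8 higher and 6 lower. Among the lower members were Chrm2, a muscarinic receptor, at 0.602 to 25.1 CPM (median 6.08) against 58.4 to 129.7 CPM (median 78.2) (log2 fold change -3.40 ± 0.43, adjusted p = 7.54e-07), and Htr1f (-1.49), Hrh1 (-1.89) and Chrm1 (-1.11).

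Glutamate receptor and auxiliary genes were called in both directions, with 9 higher, 10 lower and 14 not passing among 33 tested of 35 (median -0.23). Without VIP library 1, 9 were higher and 13 lower, and with DESeq2 9 and 12. Kainate receptor genes were among the higher: Grik2 ran 1431 to 2269 CPM (median 1672) against 401 to 980.4 CPM (median 552) (log2 fold change 1.57 ± 0.17, adjusted p = 4e-08), and Grik1 ran 371 to 578 CPM (median 497) against 114 to 274 CPM (median 169.5) (log2 fold change 1.54 ± 0.17, adjusted p = 4.3e-08). Cacng5, an AMPA receptor auxiliary subunit, ran 62 to 178 CPM (median 86.8) against 0.698 to 19.8 CPM (median 3.74) (log2 fold change 4.45 ± 0.47, adjusted p = 3.44e-08). On the lower side Gria3, an AMPA receptor subunit, ran 87.8 to 162 CPM (median 127) against 712 to 1161 CPM (median 818) (log2 fold change -2.92 ± 0.16, adjusted p = 1.82e-13). Grm3, a metabotropic receptor, ran 9.72 to 48.4 CPM (median 26.5) against 216 to 494 CPM (median 365) (log2 fold change -3.69 ± 0.26, adjusted p = 2.62e-11). Grin2a, an NMDA receptor subunit, ran 371 to 799 CPM (median 507) against 1195 to 1734 CPM (median 1468) (log2 fold change -1.50 ± 0.15, adjusted p = 1.04e-08). None of these 6 genes had overlapping ranges.

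Among 23 tested GABA receptor and inhibitory synapse genes, of 28, 5 were higher and 10 lower (median -0.28); of the 22 that reached the filter level in both groups, 4 were higher and 10 lower. Gabrd, the extrasynaptic delta subunit, ran 1.45 to 28.9 CPM (median 15.3) against 101 to 233 CPM (median 164) (log2 fold change -3.38 ± 0.33, adjusted p = 6.13e-09). Gabra4 ran 32.9 to 93.4 CPM (median 57.7) against 127 to 210.4 CPM (median 170.1) (log2 fold change -1.52 ± 0.18, adjusted p = 1.62e-07). Both had ranges that did not overlap. Gabrg3 ran 1176 to 1921 CPM (median 1253) against 552 to 1032 CPM (median 718) (log2 fold change 0.83 ± 0.14, adjusted p = 6.82e-05). Gphn, which encodes the scaffold gephyrin, was higher by 0.77 ± 0.15. In the 8 libraries that matched their sex label 1 was higher and 7 lower, and Gabrg3 and Gphn lost the call (adjusted p = 0.0639 and 0.0662).

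Many potassium channel genes were lower in VIP nuclei: of 61 genes 57 were tested, 33 were lower, where 12% of all genes were, 7 were higher and 17 did not pass, with a median of -0.88. Over the 51 that reached the filter level in both groups, 28 were lower and 7 higher. Kcnma1, the BK channel pore, ran 327 to 622 CPM (median 406) against 1434 to 1934 CPM (median 1748) (log2 fold change -2.07 ± 0.13, adjusted p = 3.44e-12). Kcnh7 and Kcnh5, of the ether-a-go-go family, had medians of 396 against 1902 CPM (log2 fold change -2.17 ± 0.15, adjusted p = 1.19e-11) and 13.5 against 279 CPM (log2 fold change -4.08 ± 0.32, adjusted p = 1.24e-10). Kcnt1, a sodium-activated channel, ran 3.61 to 28.2 CPM (median 13.3) against 101 to 136 CPM (median 113) (log2 fold change -2.96 ± 0.26, adjusted p = 1.33e-09). The higher members included the BK auxiliary subunit Kcnmb2, at 616 to 1099.6 CPM (median 842) against 59.8 to 161 CPM (median 68.9) (log2 fold change 3.30 ± 0.21, adjusted p = 1.93e-12). Kcnip1, a Kv4 channel interacting protein, ran 579.5 to 1196 CPM (median 800.5) against 11.2 to 122 CPM (median 54.7) (log2 fold change 3.89 ± 0.32, adjusted p = 3.29e-10). Thus the BK pore was lower and this BK auxiliary subunit higher in the same nuclei. Kcnn2, a calcium-activated channel, was higher by 1.40. The 33 lower genes became 21 without the 9 libraries against their sex label, and 34 without VIP library 1.

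Of 38 sodium, calcium, HCN and Trpc channel genes 37 were tested, 7 were higher and 14 lower (median -0.10). Cacnb4, a calcium channel beta subunit, ran 125 to 315 CPM (median 241) against 636 to 956 CPM (median 785) (log2 fold change -1.73 ± 0.16, adjusted p = 1.7e-09). Cacna2d1, the target of gabapentin, ran 149 to 284 CPM (median 183) against 474 to 841 CPM (median 613) (log2 fold change -1.72 ± 0.17, adjusted p = 5.85e-09). Trpc7 ran 24.3 to 73.2 CPM (median 40.5) against 0.395 to 7.23 CPM (median 5.71) (log2 fold change 3.31 ± 0.44, adjusted p = 1.37e-06) and Trpc4 137 to 298 CPM (median 223) against 89 to 119.7 CPM (median 104) (log2 fold change 1.15 ± 0.15, adjusted p = 1.18e-06); both are receptor-operated cation channels. Scn9a, a sodium channel pore, was higher by 1.16 ± 0.19.

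Of 49 calcium and cyclic nucleotide signalling genes tested, 21 were lower (12% of all genes) and 6 higher (9.45% of all genes), with a median of -0.50. Over the 47 that reached the filter level in both groups, 20 were lower and 5 higher. Itpr1, the main neuronal IP3 receptor, ran 4.89 to 24.7 CPM (median 8.81) against 351 to 608 CPM (median 412) (log2 fold change -5.22 ± 0.27, adjusted p = 9.39e-14). Its paralog Itpr2 was higher with overlapping ranges, 5.35 to 27.3 CPM (median 20.4) against 0.582 to 11.4 CPM (median 2.73) (log2 fold change 2.26 ± 0.50, adjusted p = 0.00127). Without the 9 libraries against their sex label Itpr2 lost the call (1.78, adjusted p = 0.128). The 2 calmodulin-dependent phosphodiesterases of this list that moved did so in opposite directions. Pde1a ran 18.5 to 61 CPM (median 43.8) against 518 to 753 CPM (median 606) (log2 fold change -3.85 ± 0.21, adjusted p = 2.63e-13), and Pde1c ran 61.3 to 130.2 CPM (median 84.3) against 0.116 to 17.3 CPM (median 4.7) (log2 fold change 3.99 ± 0.49, adjusted p = 3.26e-07). Ryr2, an intracellular calcium release channel, ran 171 to 372 CPM (median 199.8) against 749.7 to 1334 CPM (median 853) (log2 fold change -1.97 ± 0.17, adjusted p = 6.19e-10).

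Adhesion and guidance genes were detected in both groups and called in both directions: all 69 reached the filter level in both, 23 were higher, 18 lower and 28 did not pass (median 0.12). Cntnap2, a neurexin-like protein, ran 5467 to 9341 CPM (median 7238) against 1311 to 3025 CPM (median 1745) (log2 fold change 1.96 ± 0.16, adjusted p = 3.59e-10). Sema3c, a secreted semaphorin, ran 67.5 to 146 CPM (median 102) against 3.09 to 19.5 CPM (median 10.8) (log2 fold change 3.37 ± 0.30, adjusted p = 1.42e-09). Slit3, a ligand of ROBO receptors, ran 10.2 to 43.8 CPM (median 21.7) against 682 to 953 CPM (median 805) (log2 fold change -5.13 ± 0.23, adjusted p = 1.03e-14). Unc5d, a netrin receptor, ran 0.201 to 36.1 CPM (median 17) against 710.5 to 1303 CPM (median 1019) (log2 fold change -5.82 ± 0.41, adjusted p = 2.17e-11). Efna5 and Epha4, an ephrin and an ephrin receptor, were lower, with log2 fold changes of -2.46 and -2.31. Robo1 and Robo2 were among the 23 higher, while Slit2 and Slit3 were lower and Robo3, outside the list, had 0 counts in VIP nuclei.

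Most immediate early genes, which neuronal activity induces within minutes to hours, did not pass between the populations. Of 27 genes 21 were tested; 5 passed as lower (12% of all genes did), 1 passed as higher (9.45% of all genes) and the other 15 did not (median -0.45). Of the 5 lower genes Arc, Egr3 and Klf10 reached the filter level in neurons only, and the 1 higher gene reached it in VIP nuclei only, so these could be called in 1 direction only; over the 15 that reached it in both groups, 2 were lower (Egr1 and Per1) and 0 higher. Arc, a synaptic activity gene, ran 0 to 7.57 CPM (median 0.201) against 6.11 to 80.7 CPM (median 42.5) (log2 fold change -4.23 ± 0.73, adjusted p = 6.66e-05). Egr1 and Egr3, zinc finger factors, ran 4.74 to 44.5 CPM (median 19.7) against 18.7 to 69.8 CPM (median 45.9) (log2 fold change -1.11 ± 0.34, adjusted p = 0.0179) and 0 to 4.44 CPM (median 1.45) against 3.06 to 38.5 CPM (median 8.4) (log2 fold change -3.51 ± 0.77, adjusted p = 0.00102). The ranges overlapped for each of the 5. Fos was on the other side of 0, at 4.15 to 33.6 CPM (median 19.9) against 0 to 16.3 CPM (median 4.14), and did not pass (log2 fold change 1.77 ± 0.65, adjusted p = 0.0534). It passed with DESeq2 (adjusted p = 0.0195), with no filter on low counts (0.0314), with a minimum count of 50 (0.041) and with the labelled sex as a covariate (0.0482). With library number as a block the value was 2.36 and Fos also passed (adjusted p = 0.00658). Of single libraries, leaving out neuron library 6 moved it most, to 2.31 (adjusted p = 0.0143), and it also passed without VIP library 1 (0.0475), 4 (0.0379) or 9 (0.0416) but not without any of the other 13. Its call therefore rests on the setting. Npas4 and Nr4a1 did not pass, with log2 fold changes of 0.33 ± 0.90 and -0.46 ± 0.34. The 1 higher gene was Sik1, a salt-inducible kinase, at 4.41 to 22.6 CPM (median 16.2) against 0 to 12.5 CPM (median 1.1) (log2 fold change 2.51 ± 0.83, adjusted p = 0.0289). It lost the call without VIP library 2 or 6 (adjusted p = 0.0525 and 0.0516), and Egr1 did without neuron library 5 (adjusted p = 0.0504). In the 8 libraries that matched their sex label 1 was lower and 0 higher.

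Of 29 late activity-regulated genes 24 were tested, 10 were higher and 6 lower (median 0.67); of the 19 that reached the filter level in both groups, 8 were higher and 5 lower. Pthlh, parathyroid hormone-like hormone, ran 32.5 to 121 CPM (median 85.7) against 0 to 5.91 CPM (median 0.688) (log2 fold change 6.01 ± 0.55, adjusted p = 2.17e-09). Bdnf, brain-derived neurotrophic factor, ran 0 to 7.37 CPM (median 0.401) against 3.49 to 46.4 CPM (median 21.7) (log2 fold change -3.38 ± 0.72, adjusted p = 0.000782). Nptx1, a neuronal pentraxin, ran 3.47 to 27.1 CPM (median 11) against 97.4 to 204 CPM (median 151) (log2 fold change -3.62 ± 0.29, adjusted p = 2.05e-10), and Homer1 ran 45.2 to 95.1 CPM (median 68.8) against 112 to 363 CPM (median 203) (log2 fold change -1.56 ± 0.21, adjusted p = 1.98e-06). Vgf, a secreted neuropeptide precursor, was higher with overlapping ranges (log2 fold change 1.78 ± 0.37, adjusted p = 0.000647). Igf1 and Pthlh are on the VIP marker list too, and Igf1 was described there. In the 8 libraries that matched their sex label 4 were higher and 4 lower.

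Growth factor and steroid receptors were called in both directions, with 12 higher and 6 lower of 26 tested, from 28 (median 0.48); of the 24 that reached the filter level in both groups, 11 were higher and 5 lower. Egfr, the epidermal growth factor receptor, ran 363 to 546 CPM (median 466) against 1.89 to 16.7 CPM (median 10.1) (log2 fold change 5.68 ± 0.35, adjusted p = 1.31e-12). Kit, the stem cell factor receptor, ran 289 to 784 CPM (median 615) against 7.15 to 61.4 CPM (median 23.9), its lowest VIP value from library 1 (log2 fold change 4.46 ± 0.33, adjusted p = 3.93e-11). Nr3c2, the mineralocorticoid receptor, ran 377 to 621 CPM (median 509.9) against 131 to 211 CPM (median 153) (log2 fold change 1.60 ± 0.14, adjusted p = 8.15e-10). Gfra2, a GDNF family receptor, was lower, 0 to 6.73 CPM (median 0.29) against 33.6 to 63.7 CPM (median 42.5) (log2 fold change -4.56 ± 0.63, adjusted p = 2.63e-06). Igf1r, the receptor of IGF1, was lower with overlapping ranges, 72.6 to 187 CPM (median 109.7) against 177 to 325 CPM (median 216) (log2 fold change -0.89 ± 0.18, adjusted p = 0.000515). Of 28 nuclear genes of oxidative phosphorylation (29 table entries) 1 was higher and 0 lower, with a median of 0.30. At an unadjusted p under 0.05, 6 were higher and 0 lower, and DESeq2 called 1 and 0. The 1 gene was Sdha, a subunit of succinate dehydrogenase, at 78.3 to 191 CPM (median 160.2) against 84.1 to 144 CPM (median 119) (log2 fold change 0.45 ± 0.16, adjusted p = 0.0441), and its call was lost when any of 13 of the 17 libraries was left out (adjusted p up to 0.1). Without VIP library 1, the lowest library for Sdha, 9 of the 29 entries were higher and 0 lower, and the median was 0.39. How few of these genes passed thus depended on that library.

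Markers of glia and vessels were measured because a sort of nuclei can hold other cell types. Of 16 astrocyte markers 14 were tested, with 3 higher (9.45% of all genes were), 1 lower (12% of all) and a median of 0.15; without the 9 libraries against their sex label 1 was higher and 1 lower. Their summed level was 448 to 685 CPM in VIP libraries and 521 to 650.3 in neuron libraries. Of 15 oligodendrocyte markers 10 were tested and 1 was higher (St18; median 0.35), with sums of 144 to 472 and 194 to 457 CPM. Of 16 microglia markers 10 were tested; 0 passed edgeR's test in either direction and 0 passed DESeq2, with 1 higher at an unadjusted p under 0.05 (median 0.54), with sums of 146 to 266 and 136 to 198 CPM. The sums of these 3 lists overlapped between the groups. Of 17 vascular and mural markers 1 reached the filter; Acta2, Cldn5, Ly6c1, Slco1a4 and Vtn had 0 counts in the VIP libraries and Ly6c1 in the neuron libraries. Oligodendrocyte precursor genes were the exception in their sums, at 45.9 to 123 against 5.47 to 31.8 CPM. Only 3 of these 10 genes were tested, 2 were higher and 1 did not pass. Without VIP library 1, 2 were tested and 1 was higher. Without the 9 libraries against their sex label the counts were the same, with a median of -0.15. Cacng4, an AMPA receptor auxiliary subunit also used as a precursor marker, accounted for most of that, at 26.7 to 111 CPM (median 43.4) against 0 to 9.53 CPM (median 3.08) (log2 fold change 3.91 ± 0.53, adjusted p = 1.73e-06). Pdgfra, the defining receptor of these cells, ran 0.289 to 25.6 CPM (median 3.21) against 0 to 2.92 CPM (median 0) (log2 fold change 3.71 ± 1.03, adjusted p = 0.00907), and it did not reach the filter once VIP library 1 was left out. Neu4 and Olig2 had 0 counts in the VIP libraries. The part of these transcripts in the other results was not tested.

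**Figure D4:**
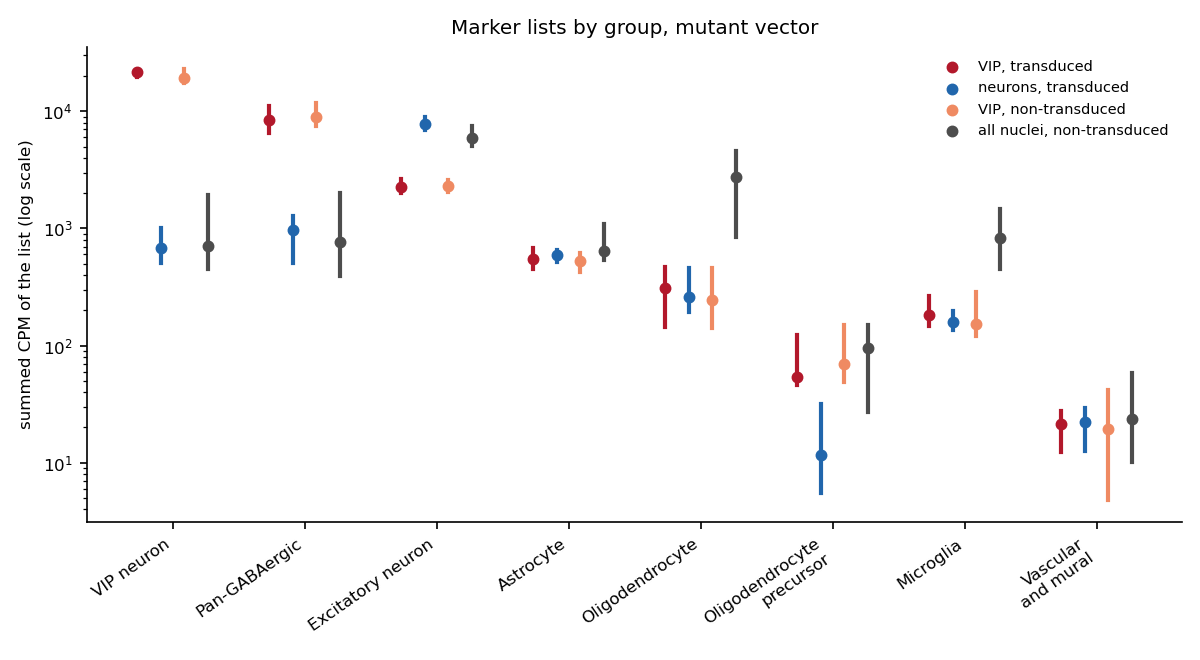
Summed CPM of 8 marker lists (vertical axis, log scale) in the 4 groups of mutant-injected cortex; points are medians and lines run from the lowest to the highest library (9, 8, 9 and 9 libraries). Oligodendrocyte and microglia sums are similar in the 3 sorted neuronal groups and higher in all nuclei, while astrocyte sums are close in all 4 groups.

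The same glial lists behaved differently against all nuclei. In non-transduced nuclei of the same injected cortex, VIP against all nuclei, 16026 genes were tested and 1317 were higher (8.22%) and 1874 lower (11.7%), 19.9% in all. There, all 15 oligodendrocyte markers were lower, with a median of -4.35, and 13 of 16 microglia markers were lower (median -2.90). The difference between the 2 contrasts was tested over the 35 mutant libraries: 293 of 18587 genes were higher in the VIP to neuron contrast (1.58%) and 82 lower (0.441%). Among the 293 were 13 of the 15 oligodendrocyte markers and 6 of 16 microglia markers (7 without VIP library 1), and 0 of 16 astrocyte markers. Only 10 oligodendrocyte and 10 microglia markers had reached the filter in the VIP to neuron contrast. The rest reached it only with the non-transduced libraries added. Counts over members that reached the filter level in every group were not made for these lists. Mog, a myelin gene, differed by 5.10 ± 0.70 (adjusted p = 7.46e-06) and Csf1r, the microglial receptor, by 4.30 ± 0.70 (adjusted p = 0.000117).

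Genes with the smallest p in this test included glial genes and others. Plekhg1, a guanine nucleotide exchange factor, ran 33.9 to 117 CPM (median 69.2) in transduced VIP nuclei, 0 to 2.93 CPM (median 0.36) in transduced neurons, 35 to 77.2 CPM (median 48.1) in non-transduced VIP nuclei and 28.1 to 106 CPM (median 62.1) in all nuclei (difference 6.34 ± 0.55, adjusted p = 2.56e-10). Its neuron libraries lay below all those of the other 3 groups. Dock10 (3.31 ± 0.34, adjusted p = 8.25e-09), Tspan2 (4.31 ± 0.41, adjusted p = 2.94e-09) and Qk, an RNA-binding protein of glia (2.48 ± 0.24, adjusted p = 2.94e-09), differed in the same direction. Tspan2 and Qk had medians of 4.71 and 52.3 CPM in transduced neurons and 115 and 273 CPM in all nuclei, and without the 9 libraries against their sex label the VIP to neuron value of Qk was 0.60 (adjusted p = 0.148) in place of 1.02. The same direction was found for the oligodendrocyte marker Prr5l, which was too low in both neuronal groups to be tested there. In the other direction, Rgs6, a regulator of G protein signalling, ran 220.5 to 428 CPM (median 268) and 866 to 1572 CPM (median 1092) in transduced VIP nuclei and neurons, and 242 to 486 CPM (median 309.9) and 386 to 812 CPM (median 509) in non-transduced VIP and all nuclei (difference -1.28 ± 0.23, adjusted p = 0.000515). Rasgrf2 (-1.51 ± 0.25, adjusted p = 0.000185), Gpc6 (-1.37 ± 0.25, adjusted p = 0.000478) and Arhgap32 (-0.97 ± 0.19, adjusted p = 0.00182) went the same way. Lrrtm4 did not pass between VIP and neurons (log2 fold change -0.04 ± 0.15, adjusted p = 0.898) and was higher in VIP than in all nuclei. Pcdha11 shares exons with the other Pcdha genes, so its value is uncertain.

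Transcripts that the vector itself can supply were compared next. Kcnj2, the gene of Kir2.1, ran 276 to 1195 CPM (median 795) in transduced VIP nuclei and 169.5 to 548 CPM (median 409) in transduced neurons (log2 fold change 0.91 ± 0.25, adjusted p = 0.00761), with overlapping ranges. Syne2, whose product ends in a KASH domain, ran 92.6 to 253 CPM (median 116) against 50.6 to 116 CPM (median 77.4) (log2 fold change 0.73 ± 0.20, adjusted p = 0.00822). In non-transduced libraries of the same cortex the Kcnj2 medians were 21.5 CPM in VIP and 16.4 CPM in all nuclei. Gene counts do not separate vector from endogenous RNA, and how far vector load differed between the populations was not tested. Both calls were lost without the 9 libraries against their sex label, at similar values (1.09 and 0.83, adjusted p = 0.0623 and 0.0993). Sun1, a nuclear envelope gene whose domain is part of the INTACT tag, was lower, 55.1 to 137 CPM (median 85) against 140.2 to 217 CPM (median 189) (log2 fold change -0.90 ± 0.17, adjusted p = 0.000173). Syn1, whose promoter drives the vector, was lower with overlapping ranges (log2 fold change -0.81 ± 0.21, adjusted p = 0.00443).

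The same contrast in the Kir2.1 libraries, which share no library with the mutant ones, gave 1253 higher (7.74%) and 1396 lower genes (8.63%) of 16180, 16.4% in all. Over the 15222 genes tested with both vectors, the log2 fold changes had a Pearson correlation of 0.834 and a Spearman correlation of 0.690, as a description across genes, which are not independent. Genes called with both numbered 1949, which is 59.7% of the mutant calls and 76% of the Kir2.1 calls, and 1945 of them had the same direction. Vip had a log2 fold change of 10.12 ± 0.72 with Kir2.1 and Slc17a7 -3.42 ± 0.36. The differences between vectors were 1.28 ± 0.90 (adjusted p = 0.949) and -0.71 ± 0.54 (adjusted p = 0.979), neither past the threshold. Kcnj2 differed between the populations by 0.19 ± 0.32 with Kir2.1 (adjusted p = 0.793), and its difference between vectors of 0.71 ± 0.44 did not pass (adjusted p = 0.899).

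**Figure D5:**
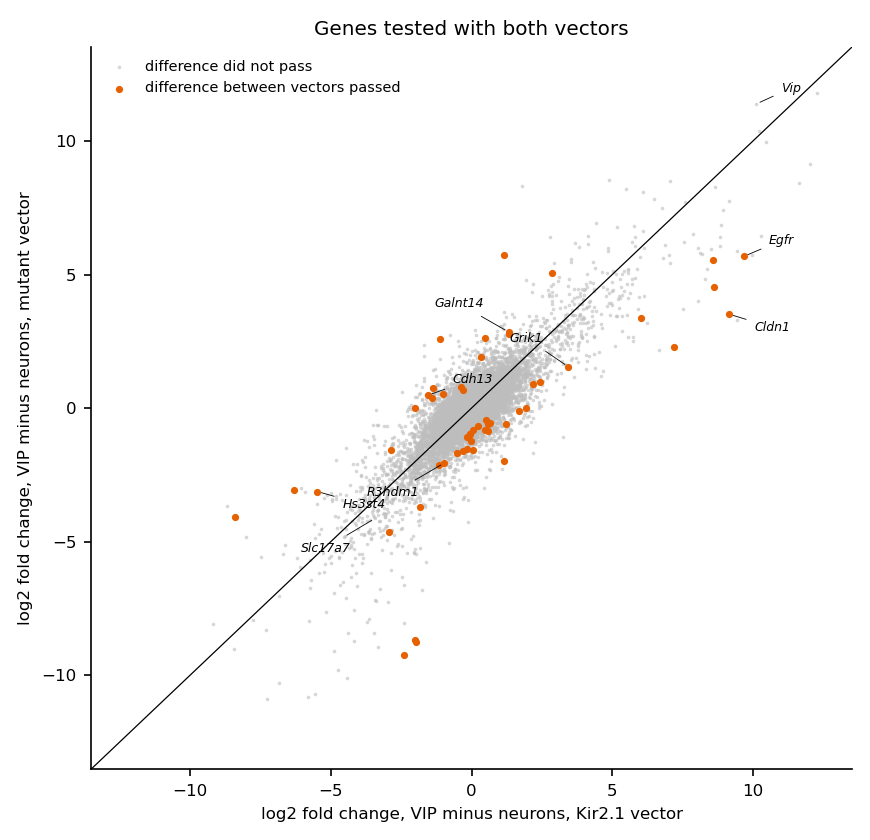
Log2 fold change of VIP over neurons with the mutant vector (vertical axis) against that with the Kir2.1 vector (horizontal axis) for the 15222 genes tested with both; the line marks equal values. Orange points passed the test of the difference between vectors; several of the leading ones, Vip and Slc17a7 are named, and folds of genes at 0 counts in a group are fitted values.

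The test of the difference itself, over 35 transduced libraries, passed for 58 of 18359 genes (0.316%): 21 where the VIP to neuron value was more positive with the mutant (0.114%) and 37 where it was more negative (0.202%), with 1289 at an unadjusted p under 0.05. Cdh13, an atypical cadherin, ran 206 to 473 CPM (median 304) and 135 to 329 CPM (median 231) in mutant VIP nuclei and neurons, and 80.8 to 198 CPM (median 146) and 296 to 833 CPM (median 393) with Kir2.1 (difference 2.02 ± 0.28, adjusted p = 0.000194). With the mutant its ranges overlapped between the populations, whereas with Kir2.1 VIP nuclei lay below neurons. Clstn2 (1.53 ± 0.27, adjusted p = 0.00251) was higher in VIP nuclei with the mutant (0.51, adjusted p = 0.0231) and lower with Kir2.1 (-1.03); without neuron library 9 or VIP library 9 the first of these calls was lost (adjusted p = 0.053 and 0.0574), and without the 9 libraries against their sex label the value was 0.16 (adjusted p = 0.765). In labelled females alone it was 0.27 (adjusted p = 0.409). Trpc6 (1.76 ± 0.31, adjusted p = 0.00251) did not pass with the mutant (0.37, adjusted p = 0.278) and was lower with Kir2.1 (-1.40). Cdh13 itself did not pass with the mutant (0.48, adjusted p = 0.0704), but did without neuron library 2, neuron library 8 or VIP library 5 (adjusted p = 0.0375, 0.0402 and 0.0391). Galnt14, a glycosyltransferase, ran 337 to 531 CPM (median 404) and 34.6 to 100.5 CPM (median 56.9) with the mutant and 159 to 427 CPM (median 295) and 87.6 to 179 CPM (median 109.6) with Kir2.1 (difference 1.51 ± 0.27, adjusted p = 0.00257), and Hs3st4, a heparan sulfate sulfotransferase of deep layers, differed by 2.34 ± 0.43, adjusted p = 0.00307. In Fam49a the difference was 0.94 ± 0.18, adjusted p = 0.00367.

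In the other direction, Egfr ran 371 to 553 CPM (median 474) and 2.01 to 17.4 CPM (median 10.6) in mutant VIP nuclei and neurons, and 96 to 278 CPM (median 165) and 0 to 1.08 CPM (median 0.0634) with Kir2.1 (difference -4.01 ± 0.61, adjusted p = 0.000328). Its VIP to neuron value was therefore smaller with the mutant although its VIP level was higher. R3hdm1 ran 304 to 452 CPM (median 336) and 1263 to 1754 CPM (median 1531) with the mutant and 230.1 to 367 CPM (median 295) and 509.5 to 739 CPM (median 609) with Kir2.1 (difference -1.10 ± 0.17, adjusted p = 0.000328). Grik1 ran 369 to 586 CPM (median 507) and 119.9 to 284 CPM (median 178), and 453 to 922 CPM (median 636) and 14.9 to 93.7 CPM (median 55.2) (difference -1.91 ± 0.32, adjusted p = 0.0015). For R3hdm1 the neuron levels did not overlap between vectors. Sidt1 (-0.99 ± 0.17, adjusted p = 0.00238) and Elmo1 (-1.24 ± 0.22, adjusted p = 0.00251), an adaptor of Rac signalling, were lower in VIP nuclei with the mutant and higher with Kir2.1. Cldn1, a tight junction protein, was at 0 to 4.78 CPM (median 1.51) in mutant neurons and at 0 in nearly all Kir2.1 neuron libraries (0 to 0.151 CPM (median 0)). Leaving out VIP library 1 kept the call of each of these 12 genes. Among the 37 genes on this side were the VIP markers Prox1 and Egfr (2 of 25) and the excitatory marker Camk2a (1 of 21).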

How the data were processed

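Nuclear RNA from 79 pools of 50 to 100 sorted nuclei of mouse visual cortex was sequenced by the submitters. The authors deposited 1 table of raw read counts per gene for all libraries (55335 Ensembl genes). Per the submitters' processing notes, cutadapt 1.18, STAR 2.5.3a and HOMER 4.9.1 were used with the mm10 genome. Per the labels' protocols, cDNA was primed with oligo-dT and libraries were made with Nextera XT, which marks no strand. The annotation and the counting rule are not given in the sources used here. Spike-in RNA was not analysed here.

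From the deposited counts, groups were taken from the labels, 55154 gene IDs were matched to GENCODE release 21 for symbols and positions, and genes were filtered with filterByExpr (minimum count 10, minimum total 15). Tests used edgeR 4.0.16 (TMM scaling, quasi-likelihood F test, R 4.3.3) fitted to the groups of each comparison, with Benjamini-Hochberg adjustment over all genes tested and a threshold of 0.05. DESeq2 1.42.0 was an alternative. The labels call the library numbers biological replicates (BioRep) but tie no library to an animal. The p-values therefore reflect only the spread among the libraries, and how much of it lies between animals is not known. Library totals and genes detected were compared with exact permutation tests, two-sided. The analysis was tested on simulated data.

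Leading genes were the 12 with the largest change in each direction among genes past the threshold whose ranges did not overlap and whose mean in the higher group was at least 20 CPM. From each gene list up to 4 members with the smallest p in each direction were named, with Vip, Slc17a7, Kcnj2 and Syne2, and the 6 smallest p in each direction of the difference tests. Slc32a1, Dlx2, Penk, Cck, Htr3a, Camk2a, Fos, Npas4, Nr4a1, Per1, Bdnf, Pvalb, Vgf, Mbp, Csf1r, Mog and genes that overlap leading genes were named after their values were seen. So were Chrna3, Chrna4, Chrna5, Chrna7, Chrnb2, Robo1, Robo2 and Slit2. Results for some genes that the rule names are not reported here. The comparison and the gene lists were chosen with earlier results of these data known. Lists share members. Of the VIP markers, Vip, Crh and Tac2 are also listed as neuropeptide precursors and Npy2r as a neuropeptide receptor. Egfr is also listed with growth factor receptors, Igf1 and Pthlh with late activity-regulated genes, Prox1 with fate regulators and Chat with transmitter genes. Alternatives were other scaling, another tool, other filters, the labelled sex, a replicate block and leaving out each library. Promoter sequences are RefSeq's, on GRCm38.p6.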

Additional observations from a re-analysis of the deposited data

Results flagged for a closer look

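Among 384 sets of values, 1 for each named gene in each group, the end value lay far from the rest in 46, or 12% (Dixon's test at the 95% level). The 5% chance rate of that test holds for normally distributed values. It was applied to raw CPM, with some sets at 0 in most libraries, so the 12% cannot be read as an excess over chance. Library 1 of the VIP group held 11 of the 46. It was the highest VIP library for Cacng4 (111 CPM), Elfn1 (332 CPM), Gabrg3 (1921 CPM), Hrh1 (54.5 CPM), Kcnc1 (206 CPM), Kcnma1 (622 CPM), Slc4a4 (213 CPM) and Zfp536 (1389.6 CPM), and the lowest for Kit (289 CPM), Npy2r (8.7 CPM) and Sdha (78.3 CPM). Its profile correlation of 0.717 with the median of the other VIP libraries was set apart in the same way.

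Neuron library 4 was far above the other neuron libraries for Cacng5 (19.8 CPM), Calb2 (4.95 CPM), Clstn2 (1186 CPM), Grik1 (274 CPM), Nxph1 (501 CPM), Rora (2035 CPM), Thsd7a (238 CPM) and Vwc2l (137 CPM). Neuron library 6 was for Fos (16.3 CPM), Gfra2 (63.7 CPM), Htr3a (30.2 CPM) and Tac2 (7.99 CPM). Htr3a and Tac2 are VIP cell genes. Vip was at 3.26 CPM in neuron library 6, below neuron libraries 8 (3.85 CPM) and 9 (5.93 CPM). Neither library was left out of the results above, and the part of VIP nuclei in the neuron libraries was not tested.

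Other single VIP libraries stood high in the same sense: library 2 for 4930598N05Rik (0.868 CPM) and Gm19410 (1.74 CPM), library 3 for Grp (2.32 CPM) and Slit3 (43.8 CPM), library 5 for Chrm2 (25.1 CPM), Lhx6 (2.6 CPM) and Oprd1 (1.99 CPM), library 6 for Igf1 (700.2 CPM), library 8 for Mog (36.9 CPM), Pvalb (17.7 CPM), Slc30a3 (49.8 CPM) and Syne2 (253 CPM), library 9 for Gm9911 (0.62 CPM). Other single neuron libraries stood high in the same sense: library 2 for Crispld2 (1.89 CPM) and Mbp (257 CPM), library 3 for Oprm1 (182 CPM) and Sik1 (12.5 CPM), library 5 for Dlx2 (0.658 CPM) and Sulf2 (73.6 CPM), library 7 for Pthlh (5.91 CPM), library 8 for Kcnmb2 (161 CPM), library 9 for Grpr (1.05 CPM) and Tspan2 (13.5 CPM).

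The VIP to neuron difference itself differed between the mutant and the Kir2.1 vector, by the interaction term of edgeR's quasi-likelihood test, for 12 named genes. The mutant minus Kir2.1 value on the log2 scale was positive for Cdh13 (2.02), Clstn2 (1.53), Trpc6 (1.76), Galnt14 (1.51), Hs3st4 (2.34) and Fam49a (0.94), and negative for R3hdm1 (-1.10), Egfr (-4.01), Grik1 (-1.91), Sidt1 (-0.99), Cldn1 (-5.62) and Elmo1 (-1.24).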

How the results depend on the processing

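The main counts of 1487 higher and 1885 lower genes stayed within 1.5 times of these values with RLE size factors, DESeq2, a minimum count of 50 and the labelled sex as a covariate. Leaving out each library in turn gave 1346 to 1682 higher and 1728 to 2151 lower genes. With no filter on low counts, 3464 were lower. Labelled males alone gave 762 higher and 943 lower, and labelled females alone 979 higher. Without the 9 libraries against their sex label, an alternative chosen after seeing the data, 708 were higher and 1212 lower. A 2-fold threshold left 988 higher. With no filter the Kir2.1 comparison gave 1906 higher and 3206 lower, the difference between vectors 144 and 130, VIP against all nuclei 2187 and 4198, and the difference from it 695 and 308. DESeq2 gave 73 genes lower in the difference between vectors, where edgeR gave 37.

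Library numbers, labelled as biological replicates, are shared between the groups, but the labels do not say that a number marks an animal. Over 5090 genes the correlation of same-numbered libraries ran from -0.04 to 0.27, over 0.1 for 5 of 8 numbers, and the own number ranked first for 1 and second for 4. The sex-linked transcripts agreed within all 8 numbers. Since 3 of 8 correlations were not over 0.1, the numbers were not taken as pairs in the main test. With the replicate block the counts were 1662 and 2277, with Kir2.1 1142 and 1534, and for VIP against all nuclei 1413 and 2112. Among named genes, the block ended the calls of Sst and Clstn2 and gave calls to Cdh13 and Fos (Fos 2.36, adjusted p = 0.00658).

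The depth difference ran from -2017970 to -1426450 counts (exact permutation p 0.0131 to 0.0509), past 0.05 without neuron library 6 or 9, and the difference in genes detected from -2008 to -1604. Of 196 named genes, 10 changed their call or sign in at least 1 such run. Signs turned only where the main value did not pass: Lrrtm4 was 0.17 in labelled males and ran from -0.12 to 0.031 with 1 library left out, above 0 without neuron library 3 or 9 or VIP library 5. In labelled females Gpc6 was -0.027, Mbp 0.17 and Npas4 -0.42; Mbp ran from -0.36 to 0.032 with 1 library left out, above 0 only without neuron library 2. The cause of these shifts was not tested, apart from the smaller number of libraries and the larger number of genes tested that the alternatives themselves set.

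Each library came from 50 to 100 nuclei and 17 PCR cycles without molecular identifiers, so floors and intervals cover counting error only. VIP libraries were shallower, and a gene at 0 there is only below about 3 counts over the group.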
